A study of Drosophila melanogaster with 2 samples.

Results

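Transcription of protein-coding genes by RNA polymerase II (Pol II) needs a set of large complexes that are present in every cell type. TFIID, made of the TATA-binding protein and TBP-associated factors (TAFs), recognises the core promoter, the general factors TFIIA, TFIIB, TFIIE and TFIIF complete the preinitiation complex, and Mediator links DNA-bound activators to Pol II. Most genes of such complexes are expressed in nearly all tissues.

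The genes described here are the protein-coding genes of the Ensembl BDGP6 annotation whose symbols begin with MED or Taf and a digit, with TfII or with Polr2. There are 62 of them among 13968 protein-coding genes on the chromosome arms, namely 25 Mediator genes, 15 TAF genes, 9 TFII factor genes (TFIIA, TFIIB, TFIIE, TFIIF and the elongation factor TFIIS) and 13 Pol II genes. The rule reads symbols alone and uses no measured value, and where each of the 62 genes is expressed was not examined here. The symbol of Polr2M places it among the Pol II genes, and its role in the fly is not given here. ChIP-seq was used to map Poxn (Pox neuro), a Pax-family factor that acts in the development of chemosensory bristles, in whole Drosophila melanogaster embryos of the strain Poxn-GFP, aged 0 to 24 h and expressing a Poxn-eGFP fusion. There were 2 biological replicates in 1 group. The sample descriptions give an antibody against GFP, whereas the antibody field reads Poxn, and a control experiment that the labels name was not analysed here. Embryos of all stages and cell types were pooled, so sites bound in a few cells cannot be told from sites bound weakly in many.

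The values are peak positions on dm6 and a signal value per peak, which is the authors' enrichment value and ranks peaks within 1 list only. A candidate is any peak of a ranked list, and a gene was counted as called when a summit of a thresholded list, cut by the authors on the irreproducible discovery rate (IDR), lay within 500 bp of one of its transcription start sites (TSSs). Where no list is named, the thresholded list of the pair of replicates is meant. The pair of replicates gave 1488 thresholded peaks among 146020 candidates, replicate 1 alone gave 800 and replicate 2 alone gave 979. No source used here states the read depth, and how far it limited the calls is unknown. With 1 group of samples there is no contrast to test, and the shares below are descriptions that carry no p-value.

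Of the 62 genes, 8 (12.9%) were called in the pair of replicates, against 7.72% of all protein-coding genes. They were MED17, MED27 and MED30 of Mediator, Taf4 and Taf5 of TFIID, TfIIA-L, which encodes the large subunit of TFIIA, and Polr2B and Polr2H of Pol II. A candidate of any height was present at 49 of the 62, and 8 of these 49 is 16.3%, against 9.97% of the 10822 protein-coding genes with a candidate. When each summit was given only to its nearest TSS, 4 of the 49 (8.16%) were called, against 7.10%. Replicate 1 alone called 5 of the 62 (8.06%), against 4.37% of all protein-coding genes. All 8 summits lay upstream of the TSS, and 7 of the 8 lay at a promoter that the gene shares with a neighbour on the opposite strand.

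The genomic sequence around 6 of the 8 summits shows how rich in A and T they were. Each stretch below reaches up to 100 bp to either side of the summit, ends where an annotated exon begins, and reads 5′ to 3′ on the strand of the named gene, from the RefSeq assembly of the dm6 release. Capitals mark every match to 1 of 8 words searched on both strands, and a match is not a shown binding site. The words were the DNA replication-related element (DRE) TATCGATA, the shorter word CGATA that it contains, the core promoter word GGTCACAC, CAGCTG (an E-box), GAGAG as a GAGA repeat and TATAAA. The others were GTCACGC, a core of Pax2/5/8 sites, and TAATTA, a core of homeodomain sites. The last line, for Polr2J, is the strongest candidate among the genes that were called in no list.
Polr2B, chr3R:14125629-14125790, plus strand: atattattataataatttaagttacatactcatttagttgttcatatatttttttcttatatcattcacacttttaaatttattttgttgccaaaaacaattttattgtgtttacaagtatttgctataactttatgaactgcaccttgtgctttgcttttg
MED17, chr3R:18188890-18189071, plus strand: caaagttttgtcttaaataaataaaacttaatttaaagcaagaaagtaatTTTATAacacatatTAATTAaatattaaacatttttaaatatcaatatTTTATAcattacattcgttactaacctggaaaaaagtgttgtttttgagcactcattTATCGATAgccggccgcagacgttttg
MED27, chr3R:5654903-5655103, plus strand: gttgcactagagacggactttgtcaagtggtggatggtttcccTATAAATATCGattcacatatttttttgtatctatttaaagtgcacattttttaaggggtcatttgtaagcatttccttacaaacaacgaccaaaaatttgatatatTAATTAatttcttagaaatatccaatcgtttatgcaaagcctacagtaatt
MED30, chr3L:654205-654362, minus strand: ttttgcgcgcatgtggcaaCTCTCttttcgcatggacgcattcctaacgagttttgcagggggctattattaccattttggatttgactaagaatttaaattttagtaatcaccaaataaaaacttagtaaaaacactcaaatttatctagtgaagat
TfIIA-L, chr3R:27253183-27253368, plus strand: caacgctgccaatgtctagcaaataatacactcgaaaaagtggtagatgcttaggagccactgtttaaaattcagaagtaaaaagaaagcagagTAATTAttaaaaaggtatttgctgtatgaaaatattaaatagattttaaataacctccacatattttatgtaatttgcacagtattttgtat
Taf4, chr3L:16113509-16113709, plus strand: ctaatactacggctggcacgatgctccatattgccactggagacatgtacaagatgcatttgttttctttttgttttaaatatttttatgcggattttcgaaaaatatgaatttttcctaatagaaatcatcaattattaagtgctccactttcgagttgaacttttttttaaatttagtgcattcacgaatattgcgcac
Polr2J, chr2L:17410500-17410640, minus strand: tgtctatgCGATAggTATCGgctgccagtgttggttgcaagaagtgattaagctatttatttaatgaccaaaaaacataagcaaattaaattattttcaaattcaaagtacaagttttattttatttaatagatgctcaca

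Over the full windows, 100 bp to either side, the median GC content was 31.1% at the 8 called summits, against 34.3% at all 785 thresholded promoter summits. The 40 windows at the highest candidates of the uncalled genes had a median of 46.8%, against 47.3% at the 16061 other promoter candidates. The called windows ranged from 24.9% at Taf5 and 25.4% at MED17 to 38.8% at Polr2H. The low GC content was thus shared with called promoters in general.

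The listed words were unevenly spread over the 8 windows. The DRE was in 1 window, that of MED17, where it stands near the 3′ end of the printed stretch, and it was in 4.46% of all thresholded promoter windows and 1.49% of other promoter candidates. CGATA was in 2 windows (MED17 and MED27), or 25.0%, against 31.5% of thresholded promoter windows and 25.0% of other candidates. TATAAA was in 4 windows (MED17, MED27, Polr2H and Taf5), against 39.1% and 16.9%, and TAATTA was in 3 (MED17, MED27 and TfIIA-L), or 37.5%, against 19.9% and 8.16%. Both words hold no G or C, and the called windows had a median GC content of 31.1%. Whether base content bears on these shares was not tested. The E-box and the GAGA repeat were in 1 window, that of MED30 (12.5%), where the E-box lies outside the printed stretch, against 10.4% and 18.2% of thresholded promoter windows and 11.3% and 24.0% of other candidates. The Pax2/5/8 core was in 0 of 8 windows, against 1.40% and 1.16%, and GGTCACAC was in 0, against 1.78% and 1.15%. Polr2B and Taf4 held none of the 8 words.

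Mediator, the coactivator complex that bridges activators and Pol II, had 3 of its 25 listed genes called, against 7.72% of all protein-coding genes. Over the 17 Mediator genes with a candidate this is 17.6%, against 9.97% of all genes with one. At MED30 the signal was 46.1 in replicate 1, 85.3 in replicate 2 and 126 in the pair. At MED27 it was 31.0 in replicate 1, 80.4 in replicate 2 and 109 in the pair. At MED17, a core subunit of the head module, it was 44.7 in replicate 1, 58.8 in replicate 2 and 92.6 in the pair. All 3 had a thresholded summit in replicate 2, and MED17 and MED30 had one in replicate 1 as well. Replicates have separate signal scales, so the percentile of a gene among all protein-coding genes with a candidate in the same list is given beside them. MED27 stood at percentile 90.5 in replicate 1 and 96.6 in replicate 2, and MED30 at 94.9 and 97.0. MED31 was called in replicate 2 alone, with a signal of 38.4 there, 18.9 in replicate 1 and 57.1 in the pair. Its candidate in the pair had a −log10 IDR of 0.89, below the lowest thresholded value of 2.00.

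Peaks of the pair near these genes were not placed alike. The MED30 peak spanned chr3L:654153-654456, with its summit 216 bp upstream of the MED30 TSS and 58 bp from that of Rev1, which encodes a translesion DNA polymerase. The MED27 peak spanned chr3R:5654851-5655154, with its summit almost midway between MED27 and elm, at 136 and 142 bp. The MED17 peak spanned chr3R:18188838-18189141, with its summit 82 bp upstream of MED17 and 283 bp from CG12321. All 3 summits were in intergenic sequence. In replicate 1 the MED17 summit was 200 bp upstream of the TSS, nearer to CG12321.

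Among the other Mediator genes, 14 had a candidate that was not called in the pair, with signals from 2.29 at MED14 to 57.1 at MED31. MED4 had the highest signal of those called in no list, at 35.6, with 30.7 in replicate 1 and 14.97 in replicate 2. Another 8 Mediator genes had no candidate within 500 bp in the pair. For MED18, MED22 and MED25 this held in all 4 ranked lists.

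**Figure D1:**
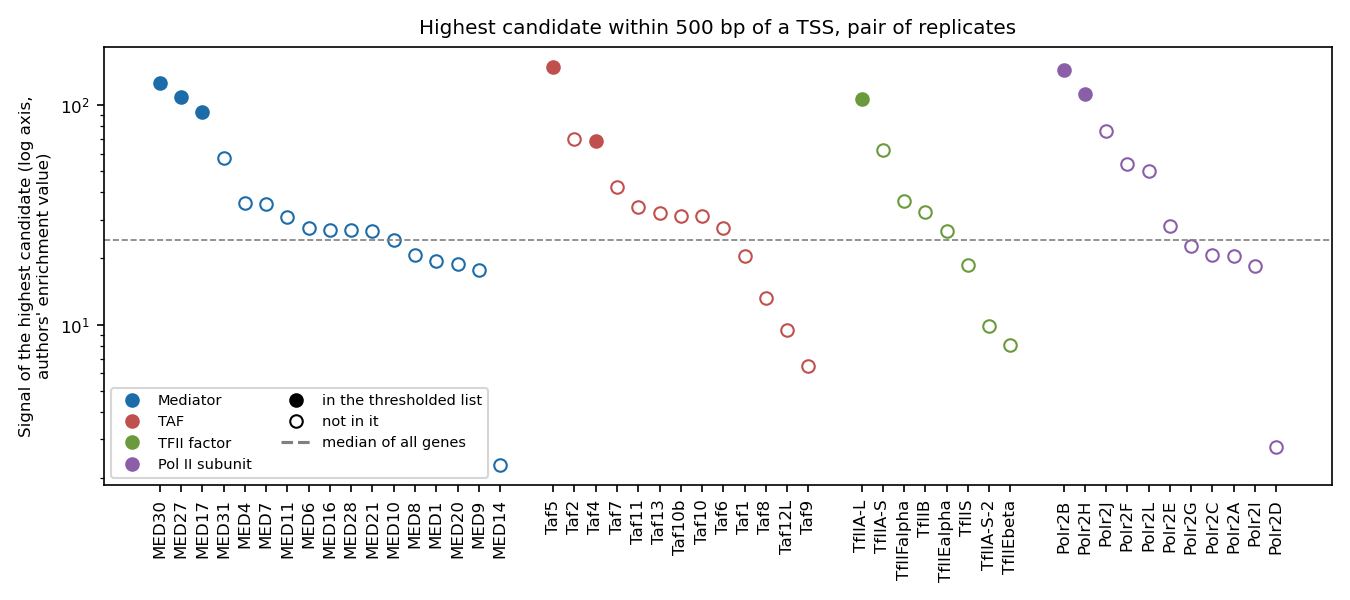
Signal of the highest candidate within 500 bp of a TSS in the ranked list of the pair (log axis, the authors' enrichment value) for the 49 genes with a candidate, grouped by complex. Filled points are in the thresholded list and the dashed line is the median over all protein-coding genes, 24.3. The 8 filled points lie between 68.4 and 149, and Polr2J at 76.2 and Taf2 at 69.5 are open although they lie above Taf4.

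TFIID, the promoter-recognition complex, had 2 of 15 TAF genes called (13.3%, against 7.72% of all protein-coding genes). Taf5, whose WD40-repeat protein is part of the TFIID core, had the highest signal of all 62 genes in the pair and in replicate 1, and stood below MED30, Polr2H and MED27 in replicate 2. Its signal was 69.3 in replicate 1, 79.2 in replicate 2 and 149 in the pair, where it ranked 277 among the 1488 peaks. Taf4, which encodes another core TAF, had 32.5 in replicate 1, 31.5 in replicate 2 and 68.4 in the pair. Taf5 was called in both replicates and Taf4 in neither alone, so the call at Taf4 rests on the lists made from both replicates.

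Taf2, whose protein is known to contact the initiator region of promoters, was called only in the conservative list of the pair. It had a signal of 32.0 in replicate 1, 30.3 in replicate 2 and 69.5 in the pair, and its −log10 IDR was 1.54 in the ranked list of the pair and 2.29 in the conservative ranked list. Taf2 and Taf4 were close in signal in each list, and the IDR placed them on opposite sides of the threshold in the main list. Of the other 12 TAF genes, 10 had a candidate, from 6.49 at Taf9 to 42.3 at Taf7. Taf1, which encodes the largest subunit of TFIID, had a signal of 20.6, with its summit 493 bp downstream of the TSS, and Taf12 and Taf3 had no candidate in the pair. Taf10 and Taf10b, whose TSSs lie 45 bp apart on opposite strands, share the same candidate with a signal of 31.2.

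The Taf5 peak spanned chr2R:10879693-10879996, and its summit was 172 bp upstream of Taf5 and 129 bp from Pex6, a gene of peroxisome biogenesis. The Taf4 peak spanned chr3L:16113457-16113760 and differed from the other 7 in lying at no shared promoter. Taf4 has 3 annotated TSSs, and the summit was in an intron, 181 bp upstream of an internal one. The nearest TSS of another gene, Zn72D, was 983 bp away.

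Among the 9 TFII factor genes only TfIIA-L was called (11.1%, against 7.72% of all protein-coding genes). It was called in all 4 thresholded lists. TFIIA stabilises binding of the TATA-binding protein to DNA. TfIIA-L had a signal of 37.9 in replicate 1, 64.5 in replicate 2 and 107 in the pair. The peak spanned chr3R:27253116-27253419, in an intron of TfIIA-L and 162 bp upstream of an internal TSS. That TSS lies 248 bp from the TSS of pll, which encodes the Pelle kinase of the Toll pathway, and the summit was 86 bp from the pll TSS. The gene for the small subunit, TfIIA-S, had a signal of 9.64 in replicate 1, 51.1 in replicate 2 and 62.3 in the pair, with the summit 14 bp downstream of its TSS. It stood at percentile 19.4 in replicate 1 and 93.65 in replicate 2, and its −log10 IDR in the pair was 1.77. TfIIFalpha, which encodes the large subunit of TFIIF, had a candidate with a signal of 36.4 in the pair and 20.6 in replicate 2, and no candidate in replicate 1. TfIIB had 32.6 in the pair, TfIIEalpha 26.6 and TfIIEbeta 8.05, and TfIIFbeta had no candidate there.

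Pol II itself had 2 of 13 genes called (15.4%, against 7.72% of all protein-coding genes). Polr2B encodes a catalytic subunit that forms the active centre together with the product of Polr2A. It had a signal of 65.8 in replicate 1, 75.2 in replicate 2 and 145 in the pair. Polr2H, which encodes a subunit shared by the nuclear RNA polymerases, had 34.5 in replicate 1, 81.4 in replicate 2 and 112 in the pair. Polr2B was called in both replicates and Polr2H in replicate 2 only, where its signal was the second highest of the 62 genes. At Polr2A, which encodes the largest subunit with the C-terminal repeats, the candidate in the pair had a signal of 20.5, the one in replicate 1 had 14.2, and replicate 2 had none.

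The Polr2B peak spanned chr3R:14125577-14125880, with its summit 62 bp upstream of Polr2B and 181 bp from 140up. The Polr2H peak spanned chr3L:21728638-21728941. Its summit was 142 bp upstream of Polr2H and lay beyond the neighbouring TSS, in the 5′ UTR of CG11247, 16 bp from the TSS of that gene. Polr2F, which encodes another shared subunit, was called in replicate 2 alone, with a signal of 56.3 there, no candidate in replicate 1 and 53.9 in the pair, where its −log10 IDR was 1.89. Polr2J, a Pol II-specific subunit gene, had a higher signal in the pair than Taf2 and Taf4, at 76.2, but a −log10 IDR of 0.13. Its signal was 13.4 in replicate 1, at a candidate 338 bp downstream of the TSS, and 55.6 in replicate 2, at a candidate upstream, at −183 bp. Polr2L had 31.2 in replicate 1, 14.9 in replicate 2 and 49.9 in the pair. Polr2K had no candidate in any list and Polr2M only 1, in replicate 1, with a signal of 3.56.

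The replicates differed in which of these genes they called. In replicate 1 alone, 5 genes were called (MED17, MED30, Polr2B, Taf5 and TfIIA-L), or 11.1% of the 45 with a candidate, against 6.41% of all genes with one. In replicate 2 alone, 9 were called, or 22.0% of 41, against 9.37%. They were the same 5 with MED27, MED31, Polr2F and Polr2H. The conservative list of the pair called 9 of 44 (20.5%), the 8 of the main list with Taf2, against 9.30%. In all, 11 of the 62 genes (17.7%) were called in at least 1 list, against 8.76% of all protein-coding genes. Over the 33 genes with a candidate in both replicates, signal had a Spearman correlation of 0.575 between replicates, against 0.502 over 7295 protein-coding genes, and the highest summits lay within 100 bp of each other at 16 (48.5%), against 49.5%. The points share their libraries and a further file that the deposited notes name for both replicates, so the correlation is a description only.

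**Figure D2:**
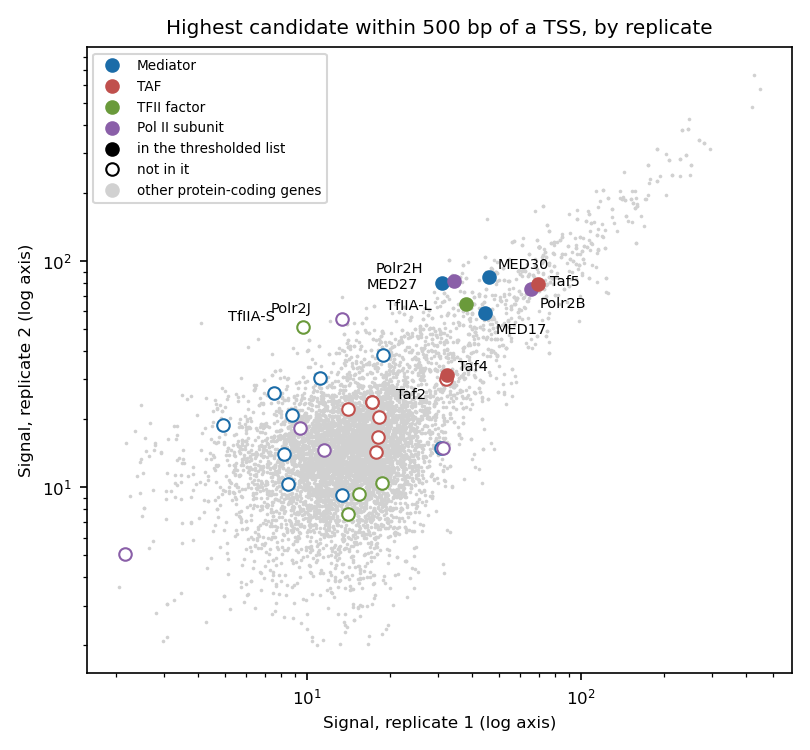
Signal of the highest candidate within 500 bp of a TSS in replicate 1 (x) and replicate 2 (y), both on log axes, for the 33 genes with a candidate in both and, in grey, the other protein-coding genes. Filled points are called in the pair. They lie to the upper right, while TfIIA-S (9.64 and 51.1) and Polr2J (13.4 and 55.6) are high in replicate 2 only.

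The summits of 6 of the 8 called genes lay in the gap between divergent TSSs, with Polr2H and Taf4 as the exceptions. A protein-coding TSS on the opposite strand, at most 500 bp upstream, stood opposite the TSS of 7 of the 8, at a median of 274 bp, and it stood so at 53.3% of the 1079 called protein-coding genes, at a median of 265 bp. The summit was between both TSSs at 6 of the 7 (85.7%), against 76.9% of the 575 such pairs over all genes. The summit was nearer the TSS of another gene at 4 of the 8 (Taf5, MED30, Polr2H and TfIIA-L), against 29.5% of all called genes. All 8 summits were upstream of the nearest TSS of the listed gene, as were 89.2% over all called genes, and the median positions were −152 and −141 bp. The peaks were 304 bp wide with the summit at their middle, so the summit is only as precise as that width allows, and a peak between TSSs cannot be assigned to either gene from these data.

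**Figure D3:**
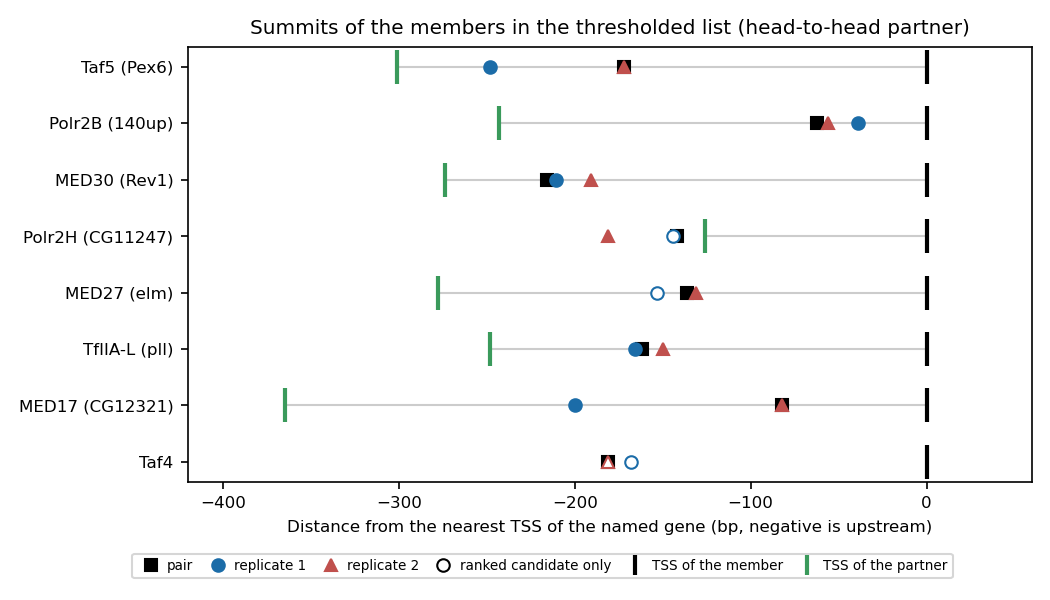
Summit positions of the 8 called genes relative to their nearest TSS (0 on the x axis, in bp, negative is upstream) in the pair (squares), replicate 1 (circles) and replicate 2 (triangles), with the partner TSS in green. Open symbols are candidates that are not in the thresholded list of that replicate. In the pair, 6 of 7 summits with a partner lie between the TSSs, and that of Polr2H lies past the partner TSS.

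Shared promoters were common among the 62 genes, called or not. A protein-coding gene on the opposite strand began within 500 bp upstream of 38 of them (61.3%), against 27.3% of all protein-coding genes. Of these 38, 7 were called (18.4%), against 16.4% of all genes with such a neighbour. Of the other 24, 1 was called (4.17%), against 4.47%. Each class taken as a whole had a share of called genes near that of all protein-coding genes, on 7 and 1 called genes. These shares by class are given for the pair only. How the higher share of head-to-head promoters relates to the difference between 12.9% and 7.72% was not tested, and neither difference was tested. In the thresholded list of the pair, none of the 11 genes whose partner began under 100 bp away was called, against 13.6% of all such genes, although Taf2, with its partner at 79 bp, was called in the conservative list. With the partner from 100 to under 200 bp away 2 of 9 were called (Polr2H, and TfIIA-L by the 105 bp from its first TSS to TTLL6B), against 10.5%, and with 200 to 500 bp 5 of 18, against 19.1%.

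**Figure D4:**
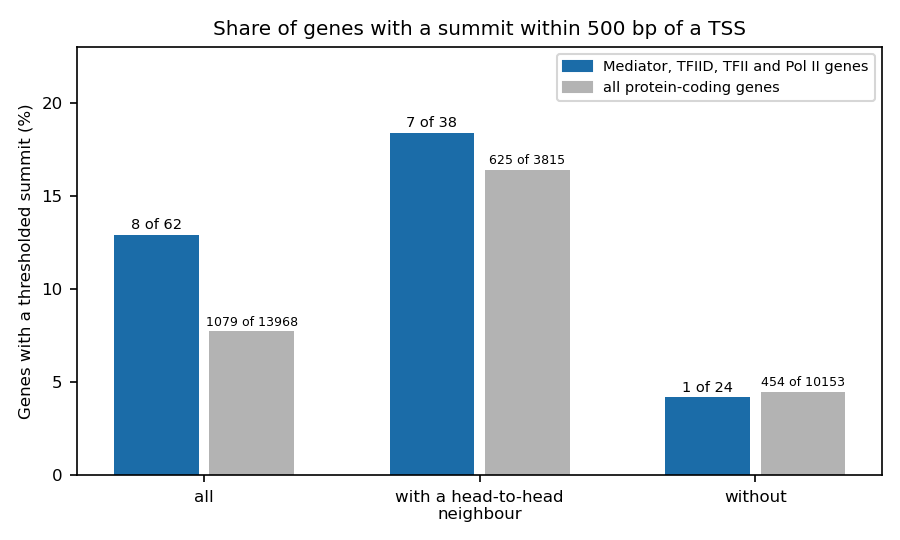
Percentage of genes with a thresholded summit of the pair within 500 bp of a TSS, for the 62 genes (blue) and all protein-coding genes, which include them (grey), in all and by whether a protein-coding gene starts head-to-head within 500 bp. The counts stand above the bars. The bars are 12.9% and 7.72% for all genes, 18.4% and 16.4% with such a neighbour, and 4.17% and 4.47% without.

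The median signal of the highest candidate was 28.2 over the 49 genes and 24.3 over all genes with a candidate, and the median gene stood at percentile 61.6. The median percentile was 71.6 over the 31 genes with a head-to-head neighbour and 50.8 over the 18 without. The same split over all genes is not given here. At or above percentile 90 there were 11 of the 49 (22.4%), beside 1082 of 10822 over all genes, a share that the percentile itself sets. The 3 uncalled genes among these 11 were Polr2J, Taf2 and TfIIA-S. The lower end was also filled, with Polr2D and MED14 at signals of 2.77 and 2.29, under percentile 1. Among the 41 genes with a candidate and no call, the highest summit was upstream of the TSS at 22, beside 4459 of 9743 over all such genes. Called genes had it upstream more often among all protein-coding genes too, as given above.

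Of the other genes of the Pol II machinery, a list of 52 that carry other names, 7 were called in the pair. This is 13.5%, beside 12.9% of the 62 genes and 7.72% of all protein-coding genes. Over the 42 with a candidate it is 16.7%, against 9.97% of all genes with one. Replicate 1 called 3 of the 52 (5.77%, against 4.37%) and replicate 2 called 6 (11.5%, against 6.17%). The counts by group are of the pair, where 7.72% of all genes were called. The Mediator kinase module gave 1 of 4. This was skd, which encodes the Med13 subunit, with a signal of 97.8. TFIIH, which opens promoter DNA and phosphorylates Pol II, gave 1 of 10. This was Ssl1, with the highest signal of any gene of the machinery, 241 in replicate 1, 294 in replicate 2 and 535 in the pair, but that summit was 83 bp from the TSS of Chro, a chromodomain protein gene, and 188 bp from that of Ssl1. Elongation and pausing factors gave 2 of 18. Both were genes of the pausing complex NELF, Nelf-E (59.5 in replicate 1, 56.9 in replicate 2 and 119 in the pair) and TH1 (32.5, 57.9 and 87.3). The SAGA coactivator, which shares TAFs with TFIID, gave 3 of 13, namely Gcn5, its histone acetyltransferase (135), wda (69.4) and Ada2b (56.4). Ada2b was called in no other list, and its −log10 IDR in the pair was 2.07. SAGA gave 0 of 13 in replicate 1, against 4.37% of all genes, and 2 of 13 (15.4%, against 6.17%) in replicate 2. The TBP family and the TAFs of other names gave 0 of 7 in the pair. The summits counted for Nelf-E, skd and wda were nearer the TSS of another gene too, that of RpL14, Pdss2 and Pex11c.

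Shares of other gene families are set beside these, with 7.72% over all protein-coding genes in the pair. In the pair, subunits of Pol I and Pol III were called at 1 of 17 (5.88%), mitochondrial ribosomal protein genes at 11 of 73 (15.1%) and cytoplasmic ribosomal protein genes at 26 of 92 (28.3%), beside 12.9% of the 62 genes. The order was not the same in every list. In replicate 1 it was as in the pair, with cytoplasmic ribosomal protein genes at 19.6%, mitochondrial ones at 9.59% and the 62 genes at 8.06%. The share of all protein-coding genes there was 4.37%. In replicate 2 the 62 genes were called at 14.5%, mitochondrial ribosomal protein genes at 13.7% and cytoplasmic ones at 14.1%, against 6.17% of all genes. In the conservative list these shares were 14.5%, 13.7% and 26.1%, against 7.14%. These differences were not tested.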

How the data were processed

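Chromatin from whole Poxn-eGFP embryos was analysed in 2 biological replicates, numbered as in the labels. Peak lists on dm6 were deposited. Per the deposited notes, the authors made them from filtered alignments of 1 or both replicates, together with another file common to all lists. No source used here names the aligner or peak caller. The signal of a peak is the authors' enrichment value, whose normalization is not stated. The IDR score and the −log10 of the global IDR, also a score, were deposited by the authors, and every thresholded peak had a −log10 IDR of at least 2.00.

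Genes and TSSs came from Ensembl release 115 (BDGP6.54) and sequence from RefSeq, both of the dm6 release, and the coordinates of 62 of the 62 genes were equal in both. For each gene the candidate of highest signal within 500 bp of a TSS was taken. Percentiles are ranks of that signal among protein-coding genes with a candidate. The assignment was tested on simulated data and recovered 500 of 500 genes. Python 3.11.15, pandas 2.3.3 and scipy 1.17.1 were used. Of 56 listed other machinery genes, 52 were used. Members and lists were chosen with earlier results of these data known. The text names every gene called in any list, the 6 strongest of those called in none, genes with no candidate, called genes of the other list and the nearest neighbours of peaks. Any other gene was named after its value was seen. The alternatives were other lists, TSS windows, backgrounds, a stricter IDR, other assignments and smaller sequence windows. Nothing was tested, since the samples form 1 group.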

Additional observations from a re-analysis of the deposited data

How the results depend on the processing

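The count of 8 called genes was 9 of 44 in the conservative list (20.5%, against 9.30% of all genes with a candidate). It was 8 of 36 with TSS windows of 250 bp (22.2%, against 11%) and 8 of 55 with 1000 bp (14.5%, against 10.2%). At a −log10 IDR of at least 3 it was 6 of 49 (12.2%, against 4.79%). The count was 5 of 45 in replicate 1 (11.1%, against 6.41%) and 9 of 41 in replicate 2 (22.0%, against 9.37%). It was 4 when each summit was given only to its nearest TSS, 4 when the peak had to overlap a TSS, and 4 without genes whose summit was nearer another gene, a setting added after seeing the data. These assignments remove genes by construction. Each 4 of 49 is 8.16%, against 7.10%, 4.77% and 7.03% of all genes with a candidate. The median percentile of 61.6 ranged from 55.3 to 73.5 over the single replicates. In windows of 50 bp to either side of the summit the DRE, CGATA and CAGCTG were in 0 windows each, in place of 1, 2 and 1. All thresholded promoter windows of that size had them at 2.29%, 16.3% and 4.08%. TATAAA was in 3 (37.5%, against 26.8%) in place of 4, and TAATTA in 2 (25.0%, against 12.2%) in place of 3. The median summit position of −152 bp was −142 bp in the conservative list. The other machinery genes gave 7 of 52 in the conservative list too (13.5%, against 7.14% of all protein-coding genes). With TSS windows of 1000 bp they gave 8 of 52, against 9.16% of the 13945 protein-coding genes on arms with a thresholded peak. With 250 bp the other machinery genes gave 5 of 52, and no share over all genes is given. In the single replicates they gave 3 of 52 (5.77%, against 4.37% of all protein-coding genes) in replicate 1 and 6 (11.5%, against 6.17%) in replicate 2. No paired analysis was possible because the 2 samples are 1 group. Depth is unknown, so a missing peak is not shown to be a missing site.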

Other observations

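Beyond the promoter windows, 1 further gene, Taf12, had a thresholded summit of the pair within 2000 bp of a TSS. It was 1425 bp away, with a signal of 112, and nearer to CG18476. Within 2000 bp the 62 genes thus had 14.5%, against 11.5% of the 13945 protein-coding genes on arms with a thresholded peak. Within 5000 bp, 22 of the 62 genes (35.5%) had one, against 18.9%. The median distance to the nearest thresholded summit was 14530 bp over the 62 and 24232 bp over all genes, and these differences were not tested. Among the nearest summits within 5000 bp, the highest was 2143 bp from Polr2C, with a signal of 521, and was nearer to CenG1A.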
